A study of Mus musculus with 8 samples.

Results

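The immediate early and heat shock genes described here are 34 genes listed by symbol, 27 immediate early genes and 7 heat shock chaperones, of the 22056 genes in the deposited matrices. All 34 were found. They were measured in tumours grown in mice from N2N1G, a murine line of the neuroendocrine carcinoma small cell lung cancer. Each allograft started from 1000000 cultured cells and was harvested after 3 weeks. The groups were brain (direct injection, 2 libraries), liver (through the tail vein, 3 libraries) and subcutaneous tissue (direct injection, 3 libraries), so site and route could not be told apart in comparisons with liver. Single cells judged healthy were isolated from each tumour by flow sorting, and droplet 3′ RNA libraries were made with 10x Genomics chemistry. All groups share this 1 line, so the labels tell the tumour cells apart by site, route and library only. The strain and genotype of the host mice are not given in the sources used here, nor whether libraries of a site came from separate mice, so p-values measure only the spread between these libraries, which may be technical.

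Immediate early genes are transcribed within minutes of a stimulus, without new protein synthesis, from promoters that growth factor, calcium and stress kinases switch on through serum response factor and CREB. Many encode transcription factors, such as the Fos and Jun subunits of AP-1, and others encode phosphatases and RNA-binding proteins that end the response. Heat shock genes are switched on by HSF1 when proteins misfold. Both classes are also known to rise while tissue is taken apart into single cells, and immediate early genes mark recent activity of neurons and activation of microglia.

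Tumour cells were taken as cells with at least 0.2% of their unique molecular identifiers (UMIs) in eGFP and Mycl, 34719 of 36797 cells kept, 2418 to 6276 per library. Their summed UMIs ran from 21689091 to 62047017 per library and their median UMIs per cell from 7972 to 10542. Myeloid cells (macrophages, microglia and neutrophils) were cells under that threshold with at least 0.5% of UMIs in 16 myeloid markers, 1217 in all, of which 795 and 242 came from brain replicates 1 and 2, 45 from liver replicate 2, 117 from subcutaneous replicate 1 and 1 to 9 from each other library. The 10 tumour markers summed to 9721 to 13608 UMIs per 1000000 summed UMIs of the class (CPM) in tumour cells and to 303 to 914 CPM in myeloid cells. The 16 myeloid markers summed to 94.2 and 622 CPM in brain tumour cells, 7.12 to 51.8 CPM in liver and 2.45 to 53.1 CPM in subcutaneous ones. In brain replicate 1 only 18.9% of tumour cells held no UMI of these markers, against 73.8% in brain replicate 2 and 81.6% to 97.6% elsewhere. Glial markers summed to 163 to 235 CPM in brain tumour cells and to 37.5 to 47.2 CPM elsewhere. Barcodes were seldom shared: 882 of 37556 distinct barcodes occurred in more than 1 library, 20 to 56 per pair of libraries. Both classes are ranges of a score rather than named types. Near the tumour threshold lay 32 to 97 kept cells per library, counted on both sides of it.

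Of the promoters, those of Junb and Hspa1a are shown because Junb was highest in brain and Hspa1a in liver in the results that follow. Jun is shown because it went against Junb, and Hspa1b as the neighbouring copy of Hspa1a. The 250 bases before the start are given 5′ to 3′ (RefSeq, GRCm38.p6) for Junb at chr8:84978749-84978998, Jun at chr4:95052223-95052472, Hspa1a at chr17:34972157-34972406 and Hspa1b at chr17:34959239-34959488, all on the minus strand and outside annotated exons. Capitals mark a pair of inverted heat shock units, GAANNTTC.
Junb: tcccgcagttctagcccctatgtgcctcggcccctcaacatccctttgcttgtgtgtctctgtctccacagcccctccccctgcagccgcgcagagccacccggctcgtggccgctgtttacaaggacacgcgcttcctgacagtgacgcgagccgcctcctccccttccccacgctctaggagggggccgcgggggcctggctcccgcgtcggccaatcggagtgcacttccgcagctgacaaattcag
Jun: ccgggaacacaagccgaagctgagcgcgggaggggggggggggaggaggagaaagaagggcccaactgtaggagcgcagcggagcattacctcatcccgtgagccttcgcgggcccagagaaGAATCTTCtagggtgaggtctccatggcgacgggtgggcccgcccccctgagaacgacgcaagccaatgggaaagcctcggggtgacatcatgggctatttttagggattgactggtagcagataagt
Hspa1a: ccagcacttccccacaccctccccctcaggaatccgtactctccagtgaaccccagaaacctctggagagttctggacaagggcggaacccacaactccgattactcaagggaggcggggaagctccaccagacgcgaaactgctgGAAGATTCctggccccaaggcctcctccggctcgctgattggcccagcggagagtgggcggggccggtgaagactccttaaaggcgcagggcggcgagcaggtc
Hspa1b: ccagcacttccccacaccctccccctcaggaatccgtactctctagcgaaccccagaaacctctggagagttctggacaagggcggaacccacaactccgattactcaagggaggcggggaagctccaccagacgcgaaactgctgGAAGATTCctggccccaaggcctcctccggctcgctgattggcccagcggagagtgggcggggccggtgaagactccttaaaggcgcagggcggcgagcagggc
The Hspa1a and Hspa1b windows were the same at 247 of 250 bases, and Junb had no capital stretch. Of the 34 members, 28 were searched in the promoter table. Egr1 was left out of this search by choice, so nothing is said of its promoter here. The shares over all genes had no such omission. GAANNTTC stood in 5 of these 28 genes (Fosl2, Jun, Hspa1a, Hspa1b and Dnaja1), against 7.73% of the 27025 genes in the table, on either strand and in any of a gene's windows. TTCNNGAA stood in Egr2 and Hsph1, against 8.11% of genes. The EGR sites GCGTGGGCG and GCGGGGGCG stood in 8 (Fosb, Fosl2, Nr4a1, Klf2, Klf4, Zfp36, Dusp2 and Dnaja1), against 3.47%. The cyclic AMP response element TGACGTCA stood in Btg2 and Dusp1, against 1.77%, and the CArG box, bound by serum response factor, in Egr2, Zfp36 and Dusp5, against 1.62%. TGACTCA, the AP-1 site, stood in none of the 28, against 5.16%. These are matches of letters only.

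Junb, Fos, all 3 EGR factors, Ier2, Dusp5 and Dnajb1 were higher in tumour cells in brain than in liver, and Jun and Hspa1a were lower. All 34 members passed the filter on low counts. With the edgeR quasi-likelihood test and an adjusted p under 0.05, 8 of the 34 members were higher in brain than in liver and 2 were lower, 29.4% of them, where 21.8% of all 13931 tested genes passed, 13.2% higher and 8.56% lower. Against subcutaneous tumours 5 members were higher in brain and 4 lower, 26.5%, where 15.1% of all genes passed, 8.94% higher and 6.13% lower. Between liver and subcutaneous tumours 2 were higher in liver and 4 lower, 17.6%, where 2.83% of all genes passed, 0.933% higher and 1.9% lower. The members were not tested as a group against all genes. Without brain replicate 1, the library with most myeloid messages, 8, 3 and 6 members passed in the 3 comparisons, where 7.84%, 2.7% and 1.28% of all genes did. Of the members called with all libraries, 7, 1 and 3 were among them. The comparisons share libraries. Junb and Dnajb1 passed in all 3 comparisons, 5 members in 2, 9 in 1, and 18 in none; in liver against subcutaneous tissue the calls of both were lost in most fits that left out 1 library.

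The 2 classes are given apart. Of 27 immediate early genes, 7 rose and 1 fell in brain against liver (median log2 fold change 0.67), 4 rose and 4 fell against subcutaneous tissue (median -0.05), and 3 fell in liver against subcutaneous tissue (median -0.74, 23 of 27 negative). Of the 7 chaperones, 1 rose and 1 fell in brain against liver (median -0.32), 1 rose against subcutaneous tissue (median -0.23), and 2 rose and 1 fell in liver against subcutaneous tissue (median 0.07). The medians of all tested genes were 0.0012, -0.00045 and -0.0061 in the 3 comparisons. Summed over the 27 immediate early genes, tumour cells held 4422 and 2960.2 CPM in brain, 2411, 2579 and 2539.5 CPM in liver, and 2799, 3374 and 3428 CPM in subcutaneous tissue. Brain replicate 1 was highest and the liver libraries were lowest. This order rested in part on Junb. Summed over the other 26 genes, the levels were 3358 and 2192 CPM in brain and 2262, 2452 and 2365 CPM in liver. They were 2453, 3139 and 3154 CPM in subcutaneous tissue, so brain replicate 2 was then the lowest library. The 7 chaperones summed to 3744 and 4404 CPM in brain, 3629, 5084 and 4934 CPM in liver, and 3758, 5222 and 5378 CPM in subcutaneous tissue, with overlap of all sites.

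**Figure D1:**
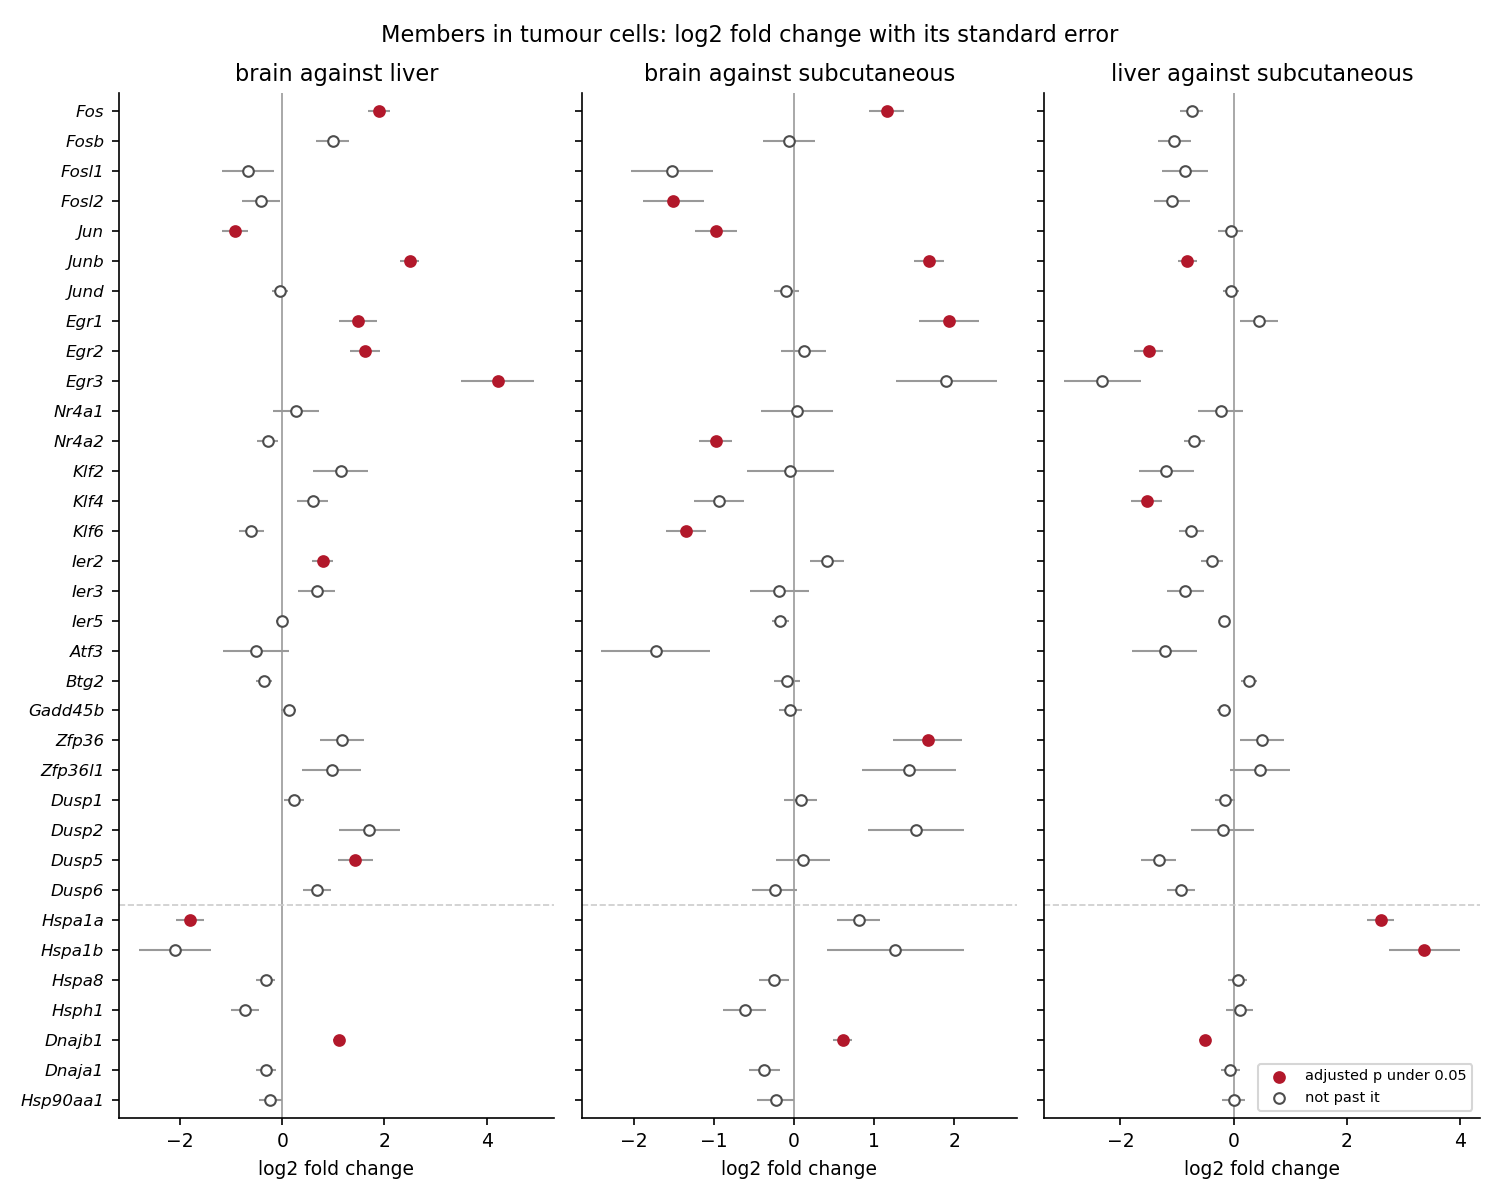
Log2 fold changes of the 34 members in tumour cells, one panel per comparison, with standard errors as bars. Filled points have an adjusted p under 0.05; immediate early genes stand above the dashed line and chaperones below it. Junb is far to the right in both brain comparisons, and most immediate early genes lie left of 0 in liver against subcutaneous.

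Sites whose libraries did not overlap were common among all genes. Of the 34 members, 15 did not overlap between brain and liver (10 above, 5 below), where 53.2% of all genes did not. Between brain and subcutaneous libraries it was 15 (8 above, 7 below), where 46.8% did not. Between liver and subcutaneous libraries it was 21 (2 above, 19 below), where 27.7% of all genes did not overlap. Every liver library lay below every subcutaneous library for those 19 members, against 21.7% of all tested genes.

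Junb, an AP-1 subunit (chr8:84974484-84978718), had the largest log2 fold change in brain against liver among members whose mean was above 10 CPM. Its levels were 1063 and 768 CPM in brain, 149, 127 and 175 CPM in liver and 346, 235 and 275 CPM in subcutaneous tissue. Both brain libraries lay above all others, and all 3 subcutaneous libraries above all 3 liver libraries. Site means were 916 ± 209 CPM (SD, n = 2) in brain, 150.2 ± 23.9 CPM (SD, n = 3) in liver and 285 ± 55.98 CPM (SD, n = 3) in subcutaneous tissue. Junb rose in brain against liver (log2 fold change 2.49, SE 0.19, adjusted p = 0.000342) and against subcutaneous tissue (log2 fold change 1.68, SE 0.19, adjusted p = 0.00159), and fell in liver against subcutaneous tissue (log2 fold change -0.81, SE 0.17, adjusted p = 0.0442). The last call was lost in 7 of the 8 fits that left out 1 library, all but the one without subcutaneous replicate 1, with an adjusted p of up to 0.213.

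Fos, which pairs with Jun proteins in AP-1 (chr12:85473890-85477273), measured 242 and 125 CPM in brain, 47.7, 39.6 and 49.5 CPM in liver and 80.8, 80.95 and 85.2 CPM in subcutaneous tissue. No library of one site overlapped another's, with brain highest and liver lowest. Fos rose in brain against liver (log2 fold change 1.89, SE 0.22, adjusted p = 0.00127) and against subcutaneous tissue (log2 fold change 1.15, SE 0.22, adjusted p = 0.0120), while liver against subcutaneous tissue missed the threshold (log2 fold change -0.74, adjusted p = 0.0910). Without brain replicate 1 the difference from subcutaneous tissue was 0.62 with an adjusted p of 0.0577.

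Jun, the founding AP-1 subunit (chr4:95049034-95052222), went the other way. It measured 342 and 205 CPM in brain, 405, 569 and 459 CPM in liver and 399, 596 and 612 CPM in subcutaneous tissue, with both brain libraries below all others. Jun fell in brain against liver (log2 fold change -0.92, SE 0.26, adjusted p = 0.0333) and against subcutaneous tissue (log2 fold change -0.98, SE 0.26, adjusted p = 0.0357). Both calls were near the threshold and were lost without any one of several libraries, brain replicate 2 (log2 fold changes -0.60 and -0.66), liver replicates 1 and 3 and subcutaneous replicate 2 in both, liver replicate 2 in the first, and brain replicate 1 and subcutaneous replicate 3 in the second. As a description, Junb stood at 3.11 and 3.75 times the Jun level in brain, 0.223 to 0.381 times in liver and 0.395 to 0.867 times in subcutaneous tissue.

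Fosl2, a Fos relative with slower kinetics (chr5:32135801-32157842), measured 4.98 and 2.38 CPM in brain, 4.98, 3.93 and 4.40 CPM in liver and 6.16, 13.3 and 11.2 CPM in subcutaneous tissue. It fell in brain against subcutaneous tissue (log2 fold change -1.51, SE 0.38, adjusted p = 0.0303), a call lost in 7 of the 8 fits that left out 1 library (all but subcutaneous replicate 1, range of log2 fold change -2.09 to -1.05 over all alternatives). Fosb measured 34.3 and 16.9 CPM in brain, 14.8, 7.90 and 12.8 CPM in liver and 31.8, 24.3 and 23.4 CPM in subcutaneous tissue and passed in no comparison (log2 fold changes 0.99, -0.06 and -1.05). Jund, which is expressed broadly and responds less to stimuli, measured 505 to 724 CPM, with log2 fold changes of -0.05, -0.10 and -0.05. Fosl1 stayed at or below 1.08 CPM in every library.

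The 3 EGR zinc finger factors were higher in brain than in liver. Egr1, a standard marker of recent signalling, measured 116 and 56.9 CPM in brain, 34.9, 33.6 and 16.97 CPM in liver and 24.96, 18.3 and 24.7 CPM in subcutaneous tissue. Brain lay above all other libraries, while liver and subcutaneous libraries overlapped. Egr1 rose in brain against liver (log2 fold change 1.48, SE 0.37, adjusted p = 0.0265) and against subcutaneous tissue (log2 fold change 1.93, SE 0.37, adjusted p = 0.0159). The first call was lost without brain replicate 1 (0.90), liver replicate 1 or liver replicate 2, and the second without brain replicate 1 (1.35), subcutaneous replicate 2 or 3.

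Egr2 (chr10:67535475-67542188), an EGR factor of nerve sheath and lymphoid cells, measured 11.99 and 5.58 CPM in brain, 2.63, 2.20 and 3.02 CPM in liver and 8.63, 6.96 and 8.44 CPM in subcutaneous tissue. Liver was lowest without overlap, and brain and subcutaneous libraries overlapped. It rose in brain against liver (log2 fold change 1.62, SE 0.29, adjusted p = 0.00577) and fell in liver against subcutaneous tissue (log2 fold change -1.50, SE 0.26, adjusted p = 0.0250). Without brain replicate 1 the brain against liver value was 1.00 and still passed. The liver against subcutaneous call was lost without any one liver library, or without subcutaneous replicate 2 or 3.

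Egr3 (chr14:70077203-70082614) was scarce, with 96 and 42 UMIs in the brain libraries, 8, 3 and 8 in liver and 49, 24 and 33 in subcutaneous libraries, or 4.43 and 1.09 CPM in brain, 0.162, 0.0627 and 0.173 CPM in liver and 1.17, 0.387 and 0.636 CPM in subcutaneous tissue. It rose in brain against liver (log2 fold change 4.22, SE 0.72, adjusted p = 0.00509), with a value that rests on the few liver UMIs, and did not pass against subcutaneous tissue (adjusted p = 0.0747).

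**Figure D2:**
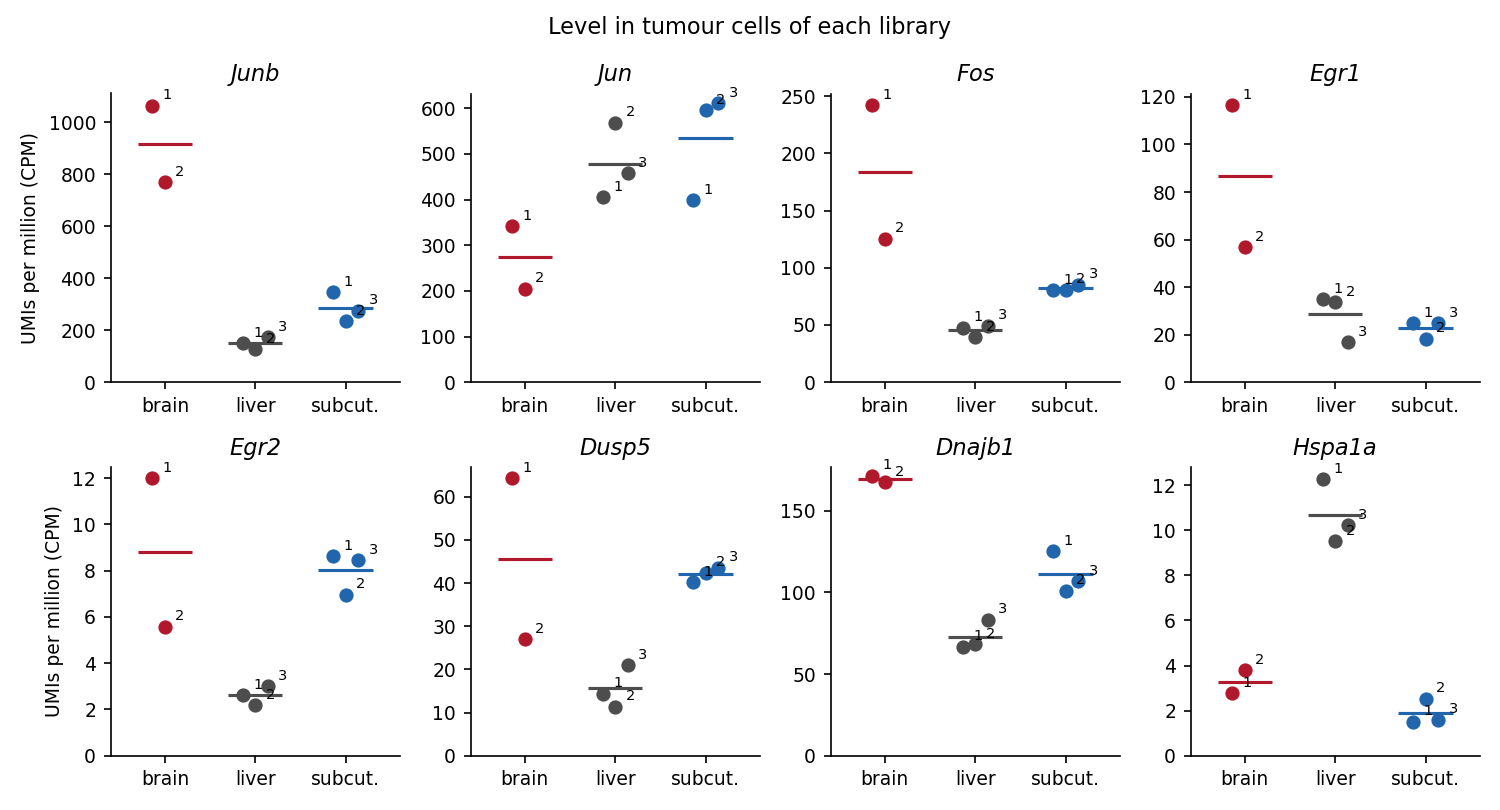
Levels of 8 members in tumour cells in CPM, by site, with each point a library labelled by its replicate number and each line the site mean. Junb, Fos and Egr1 are highest in both brain libraries, Jun is lowest there, and Hspa1a is highest in all 3 liver libraries.

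None of the 5 Krüppel-like and NR4A factors passed as higher in brain. Klf6, a zinc finger factor induced by injury (chr13:5861482-5870394), measured 45.05 and 30.9 CPM in brain, 50.1, 52.6 and 56.8 CPM in liver and 65.6, 122 and 100.2 CPM in subcutaneous tissue, with both brain libraries below all others. It fell in brain against subcutaneous tissue (log2 fold change -1.35, SE 0.25, adjusted p = 0.0113), a call lost without either brain library, at -1.63 and -1.10. Nr4a2, an orphan nuclear receptor of dopamine neurons (chr2:57106830-57124003), measured 28.4 and 23.1 CPM in brain, 27.1, 26.9 and 32.98 CPM in liver and 36.1, 55.6 and 60.2 CPM in subcutaneous tissue. It fell in brain against subcutaneous tissue (log2 fold change -0.98, SE 0.21, adjusted p = 0.0188), a call lost without either brain library, subcutaneous replicate 2 or 3.

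Klf4, a factor of epithelial and monocyte differentiation (chr4:55527143-55532466), measured 13.00 and 6.41 CPM in brain, 5.16, 4.50 and 7.99 CPM in liver and 16.5, 20.6 and 17.9 CPM in subcutaneous tissue. Subcutaneous libraries lay above all others. It fell in liver against subcutaneous tissue (log2 fold change -1.53, SE 0.27, adjusted p = 0.0266), a call lost without liver replicate 1 or 2, or subcutaneous replicate 2 or 3. Klf2 (21.7 and 5.32 CPM in brain, 5.71, 4.50 and 6.52 CPM in liver and 12.7, 19.3 and 9.04 CPM in subcutaneous tissue) and Nr4a1 (13.97 and 3.33 CPM in brain, 6.30, 6.36 and 6.89 CPM in liver and 7.22, 8.59 and 8.90 CPM in subcutaneous tissue) passed in no comparison. In both, brain replicate 1 stood well above brain replicate 2, and the Nr4a1 result turned on which of them was used. Without brain replicate 1, Nr4a1 passed as lower in brain than in liver (log2 fold change -1.06) and in subcutaneous tissue (-1.29), and without brain replicate 2 it passed as higher than in liver (0.99).

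Among the IER proteins, Ier2, a nuclear product of the early growth response (chr8:84661331-84662852), measured 817 and 485 CPM in brain, 349, 341 and 349 CPM in liver and 389, 512 and 565 CPM in subcutaneous tissue. It rose in brain against liver (log2 fold change 0.79, SE 0.21, adjusted p = 0.0261), a call lost without brain replicate 1 (0.39) or any one liver library. Ier3 (3.58 to 11.8 CPM) and Ier5 (77.6 to 113 CPM) passed in no comparison. Neither did the stress and growth arrest genes Atf3, Btg2 (241 to 351 CPM) and Gadd45b (94.4 to 148 CPM). Atf3, a stress factor that represses its own response, measured 45.7 and 9.09 CPM in brain, 32.5, 33.7 and 40.3 CPM in liver and 45.1, 114 and 108 CPM in subcutaneous tissue, and without brain replicate 1 it passed as lower in brain than in subcutaneous tissue (log2 fold change -3.28).

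The MAP kinase phosphatases, which switch ERK and its relatives off again, held 1 member that passed, Dusp5 (chr19:53529109-53542431). Dusp5 measured 64.3 and 27.1 CPM in brain, 14.4, 11.4 and 21.02 CPM in liver and 40.3, 42.4 and 43.6 CPM in subcutaneous tissue. It rose in brain against liver (log2 fold change 1.43, SE 0.34, adjusted p = 0.0191), with liver libraries below all others, and this call was lost without brain replicate 1 (0.71), liver replicate 1 or liver replicate 2. Dusp6, which acts on ERK, measured 30.5 and 14.3 CPM in brain, 11.5, 11.6 and 15.3 CPM in liver and 21.9, 28.6 and 28.3 CPM in subcutaneous tissue and missed the threshold throughout (log2 fold changes 0.68, -0.25 and -0.93). Dusp1 ranged from 134 to 261 CPM and Dusp2 from 0.223 to 2.17 CPM, and neither passed.

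Zfp36, which binds AU-rich messages and speeds their decay (chr7:28376784-28380253), measured 25.3 and 8.24 CPM in brain, 6.70, 8.51 and 5.20 CPM in liver and 6.88, 4.27 and 4.55 CPM in subcutaneous tissue. It rose in brain against subcutaneous tissue (log2 fold change 1.67, SE 0.43, adjusted p = 0.0348), and without brain replicate 1 the log2 fold change was 0.68. That call was then lost, and leaving out liver replicate 1, subcutaneous replicate 2 or 3 ended it as well. Its relative Zfp36l1 stayed at or below 3.60 CPM in every library and passed in no comparison.

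Hspa1a, a stress-inducible HSP70 gene, was higher in liver than at both other sites. Hspa1a (chr17:34969190-34972156) measured 2.77 and 3.80 CPM in brain, 12.3, 9.51 and 10.2 CPM in liver and 1.51, 2.53 and 1.60 CPM in subcutaneous tissue, with all liver libraries above all others. It fell in brain against liver (log2 fold change -1.80, SE 0.27, adjusted p = 0.00307) and rose in liver against subcutaneous tissue (log2 fold change 2.61, SE 0.24, adjusted p = 0.00179). Its neighbour Hspa1b (chr17:34956436-34959238) had 21, 17 and 11 UMIs in liver, 2 and 3 in brain and 3, 1 and 1 in subcutaneous libraries. It rose in liver against subcutaneous tissue (log2 fold change 3.37, SE 0.63, adjusted p = 0.0304), a call lost in 6 of the 8 fits that left out 1 library, all but those without liver replicate 3 or subcutaneous replicate 1, and with DESeq2. Brain against liver did not pass (log2 fold change -2.11, adjusted p = 0.0618). Of the 90-base stretches of the Hspa1a transcript 49.3% also occur in Hspa1b, but none in the last 500 bases, where 3′ reads fall.

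Few cells carried these UMIs. In liver, 85, 105 and 74 tumour cells (2.07%, 2.51% and 1.57%) held an Hspa1a UMI, and single cells held up to 60, 68 and 140. The 10 cells with most UMIs held 50.5% to 93.9% of each library's Hspa1a, against 2.08% to 4.24% for Junb and 4.49% to 10.3% for Fos. In brain replicate 1, 27 of its 60 UMIs lay in the 457 tumour cells with no myeloid-marker UMI, and 1 cell of the library held 19. In such cells alone the brain against liver difference was -0.81 and did not pass (adjusted p = 0.132), while liver against subcutaneous tissue was 2.62 and passed. Brain against subcutaneous tissue, which did not pass over all tumour cells, passed in these cells as higher in brain (log2 fold change 1.81, adjusted p = 0.0110).

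Dnajb1, the J-domain partner that hands substrates to HSP70 (chr8:83608193-83612653), was lowest in liver. It measured 172 and 168 CPM in brain, 66.9, 68.5 and 83.4 CPM in liver and 126, 101 and 107 CPM in subcutaneous tissue, and no library of one site overlapped another's. Dnajb1 rose in brain against liver (log2 fold change 1.11, SE 0.12, adjusted p = 0.000916) and against subcutaneous tissue (log2 fold change 0.61, SE 0.12, adjusted p = 0.0128), and fell in liver against subcutaneous tissue (log2 fold change -0.50, SE 0.11, adjusted p = 0.0451). The brain against subcutaneous call was lost without either brain library, at 0.61 and 0.62, and without subcutaneous replicate 2 or 3. The liver against subcutaneous call was lost in 6 of the 8 fits that left out 1 library, all but those without liver replicate 3 or subcutaneous replicate 1.

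The other 4 chaperones passed in no comparison. Hspa8, the constitutive HSP70, ranged from 2401 to 3479 CPM, Hsp90aa1, the inducible HSP90, from 728 to 1240.3, the HSP70 partner Dnaja1 from 309 to 496, and the HSP110 gene Hsph1 from 34.6 to 80.7. These 4 were lowest in the library numbered 1 of every site. Of the other members Gadd45b alone shared this order, and so did 12.6% of all tested genes.

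Dnajb1, Ier2 and Junb lie within 1 stretch of chromosome 8 where many other genes were also higher in brain, a stretch looked at after seeing the data. Of 42 other tested genes at chr8:83608193-84978718, 28 were higher and 1 lower in brain than in liver (median log2 fold change 0.67), and 21 were higher and 0 lower than in subcutaneous tissue (median 0.64). Between liver and subcutaneous tissue the median was -0.01. By distance from the Junb start, the medians of genes at 10 CPM or more in brain against liver were -0.03 from -20 to -15 Mb, 0.54, 0.60 and 0.61 in the next 3 steps of 5 Mb up to Junb, and 0.46 and 0.32 in the 2 steps after it. Each of these steps held 14 to 61 genes. Shifts were not confined to this chromosome. Over the tested genes of a chromosome without the members, the median in brain against liver was 0.14 on chromosome 8, 0.17 on 6 and 0.21 on 14. The other chromosomes had medians from -0.07 (X) to 0.03 (4). Of 29 genes within 5 Mb of Egr3, on chromosome 14, 7 were higher and 1 lower (median 0.26). Copy number of these regions was not measured.

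Both brain libraries showed this local rise. The median of 61 genes within 5 Mb of Junb stood at 0.34 and 0.44 (log2, relative to each gene's mean over the 8 libraries) in brain, -0.14, -0.15 and -0.15 in liver, and -0.02, -0.17 and -0.17 in subcutaneous libraries. In a fit chosen after seeing the data, in which each gene's local level was taken off, Junb was 1.97 in brain against liver (adjusted p = 0.000621) and 1.19 against subcutaneous tissue (adjusted p = 0.00587). Dnajb1 was 0.57 (adjusted p = 0.00726) and 0.12 (adjusted p = 0.502), so its second call was lost. Ier2 was 0.27 against liver (adjusted p = 0.470) and lost its call. Fos passed at 1.88 and 1.16, and the 40 genes near it had medians of 0.01 and 0.01. Egr1 against liver (1.34, adjusted p = 0.0598) and both Jun calls (-0.78 and -0.89) missed the threshold. Klf2 and Jund lie near the far edge of the raised stretch, where the window of 5 Mb mixes raised and unraised genes.

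**Figure D3:**
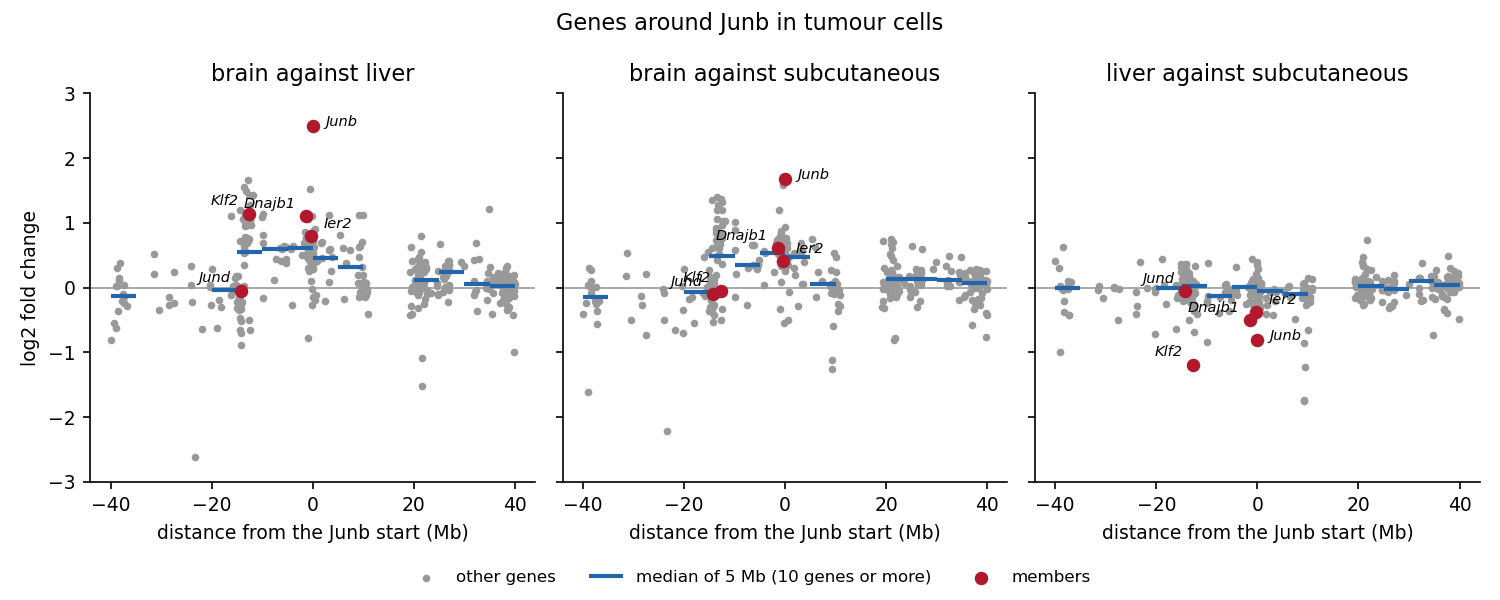
Log2 fold changes in tumour cells of 349 genes at 10 CPM or more within 40 Mb of the Junb start, plotted by distance, with members in red and the medians of steps of 5 Mb that hold at least 10 genes in blue; 1 gene lies beyond the axis. In both brain comparisons the medians are above 0 from about 15 Mb before to 5 Mb after Junb, and Junb reaches 2.49 against liver. Dnajb1 stands at 1.11 against liver, where genes within 5 Mb of it had a median of 0.55. Against subcutaneous tissue it stands at 0.61 (median 0.51). Ier2 stands at 0.79 against liver (median 0.53) and 0.41 against subcutaneous tissue (median 0.52).

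The brain libraries differed from each other in the immediate early genes. Of the 26 of these genes with at least 20 UMIs, 25 were higher in brain replicate 1 than in brain replicate 2 in tumour cells, with a median ratio of 2.04, where 52.1% of 13270 genes were. Atf3 had the highest ratio, 5.02, and Gadd45b alone was lower, at 0.92. In tumour cells with no myeloid-marker UMI 21 of 26 were higher (median ratio 1.57), and in myeloid cells 23 of 26 (median 1.67). The share over all genes was taken in all tumour cells only, not in these sets of cells. Of 6 chaperones with enough UMIs, 1 was higher in brain replicate 1 in tumour cells (median ratio 0.82) and 2 of 6 in myeloid cells. With 1 library on each side there is no replicate check of this difference.

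**Figure D4:**
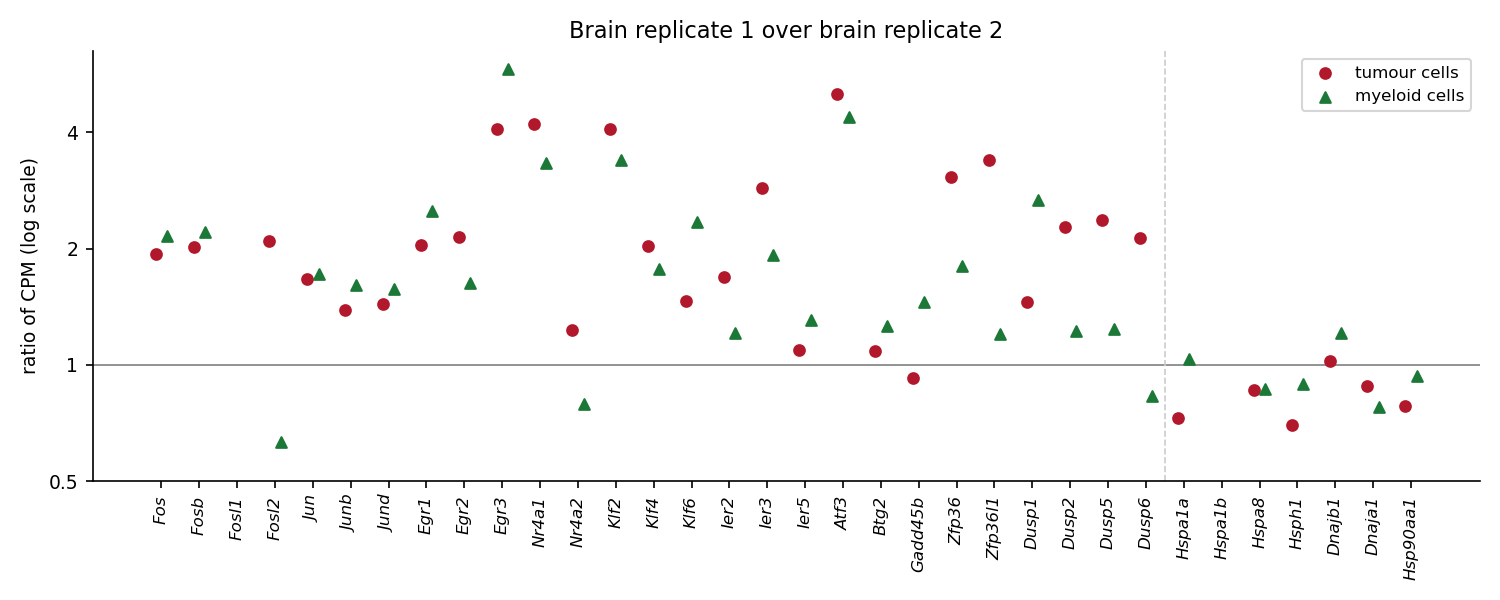
Ratio of CPM in brain replicate 1 to brain replicate 2 for each member with at least 20 UMIs, in tumour cells (circles) and myeloid cells (triangles), on a log axis. Immediate early genes, left of the dashed line, lie above 1 in 25 of 26 cases in tumour cells and in 23 of 26 in myeloid cells, and chaperones lie on both sides of 1.

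Myeloid messages were found in the tumour cells of brain replicate 1, and myeloid cells are rich in several members. Free RNA and mixed droplets cannot be told apart here. If myeloid RNA had entered tumour cells in the ratio of the marker genes (1.73% of the myeloid level in brain replicate 1 and 0.291% in replicate 2), it would equal 4.05% of the Junb level in replicate 1, 7.54% of Egr1, 8.33% of Jun, 1.02% of Dnajb1 and 26.2% of Fos. For Zfp36 it would be 73.2%, for Klf2 80.1%, for Dusp2 68.6% and for Zfp36l1 99.9%. These shares assume 1 ratio for all myeloid RNA, but the ratio varied by marker. In brain replicate 1, neutrophil markers summed to 52.4 CPM in tumour cells and 471 CPM in myeloid cells. The microglia marker P2ry12 measured 16.2 and 1493 CPM. In this library 55 tumour cells also reached the myeloid threshold and were kept in the sums. In tumour cells with no myeloid-marker UMI, brain replicates 1 and 2 held 1087 and 778 CPM of Junb, 183 and 124 CPM of Fos, and 14.7 and 6.27 CPM of Zfp36. A fit to such cells called 9 members in brain against liver, 10 in brain against subcutaneous and 8 in liver against subcutaneous, where 19%, 12.7% and 3.26% of all genes passed. Of these members 9, 8 and 6 were also called over all tumour cells. Zfp36 lost its call there (log2 fold change 0.90, adjusted p = 0.135), while Junb (2.58 and 1.76), Fos (1.67 and 0.95) and Egr1 (1.39 and 1.84) passed in both brain comparisons.

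The raised levels were spread over many cells. Tumour cells were thinned to 3000 UMIs each, and 48 to 180 cells per library that had fewer were dropped. The share of cells with a Junb UMI was then 64.2% and 60.6% in brain, 31.2%, 24.8% and 33.99% in liver, and 45.2%, 42.4% and 46.95% in subcutaneous tissue. The exact 95% interval, which covers counting error only, was 59.1% to 62.2% in brain replicate 2 and 45.5% to 48.4% in subcutaneous replicate 3, the nearest library outside brain. Unthinned, the Junb shares in brain were 76.8% and 78.8%. For Fos the share was 32.8% and 22.5% in brain, 10.95%, 7.98% and 9.69% in liver, and 13.4%, 14.6% and 15.3% in subcutaneous tissue, again highest in both brain libraries. For Egr1 it was 22.4% and 13.6% in brain, 8.27%, 6.75% and 4.45% in liver, and 6.0%, 4.41% and 6.22% in subcutaneous tissue. For Jun it was 44.8% and 36.2% in brain, 58.7%, 61.2% and 54.7% in liver, and 46.4%, 63.4% and 65.2% in subcutaneous tissue, lowest in brain. No cell type here can be assumed to lack these genes, so the share that free RNA gives them was not measured.

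Of the other 26 immediate early genes, 16 were found in a larger share of the cells with a Fos UMI than of the rest in every library, as was 1 of 7 chaperones, Dnajb1. The same count over all genes was not taken, so 16 of 26 cannot be set against a share of all genes. Tumour cells with myeloid-marker UMIs were kept here, and myeloid cells are rich in several members. The part of myeloid RNA in these ratios was not tested. At the same 3000 UMIs, the share of cells with an Egr1 UMI was 2.43 to 4.13 times as high among cells with a Fos UMI as among the rest, over the 8 libraries, and that of Fosb 2.49 to 4.44 times. For Junb it was 1.48 to 2.07 times, for Jun 1.24 to 1.36 times and for Dnajb1 1.12 to 1.73 times. For the other 10 immediate early genes the ratio was not above 1 in every library, as for Ier5, from 0.618 to 1.25 times. Dusp5, Egr2, Fosl2 and Ier3 were above 1 in 7 of the 8 libraries. Dusp2, Egr3 and Fosl1 rest on few UMIs, and a ratio that could not be formed counted as not above 1. For the abundant chaperones Hspa8 and Hsp90aa1 it was 0.988 to 1.00 and 0.938 to 1.01 times. At 3000 UMIs per cell most cells hold a UMI of both, which keeps the ratio near 1. The ratio therefore cannot show whether these chaperones go with Fos. The more cells hold a gene, Junb included, the lower the ratio it can reach. These ratios describe cells within libraries and carry no test.

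Myeloid cells of the same tumours held far more of most members. In the 4 libraries with at least 20 myeloid cells, 24 of 32 tested members were higher in myeloid than in tumour cells and 3 lower (edgeR with library as a block), 84.4% of them, where 59.6% of 12532 genes passed, 25.7% higher and 33.9% lower. The largest differences were in the phosphatase Dusp2 (log2 fold change 7.36), the decay factors Zfp36l1 (7.33) and Zfp36 (6.86), and Klf2 (6.49), a factor of quiescent leukocytes and endothelium. Next came Ier3 (5.68), Nr4a1 (5.56), Klf4 (5.53), Hspa1a (5.02) and Fos (4.78). Chaperones were the members that fell, with log2 fold changes of -1.75 for Hsph1, -1.43 for Hsp90aa1 and -0.88 for Dnaja1. The medians were 3.00 over the members tested and -0.27 over all genes. Jun, Nr4a2, Gadd45b, Hspa8 and Dnajb1 did not pass, and Fosl1 and Hspa1b had too few UMIs to test. Tumour cells had a median of 7972 to 10542 UMIs per library and myeloid cells of these 4 libraries 2017 to 5267.

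**Figure D5:**
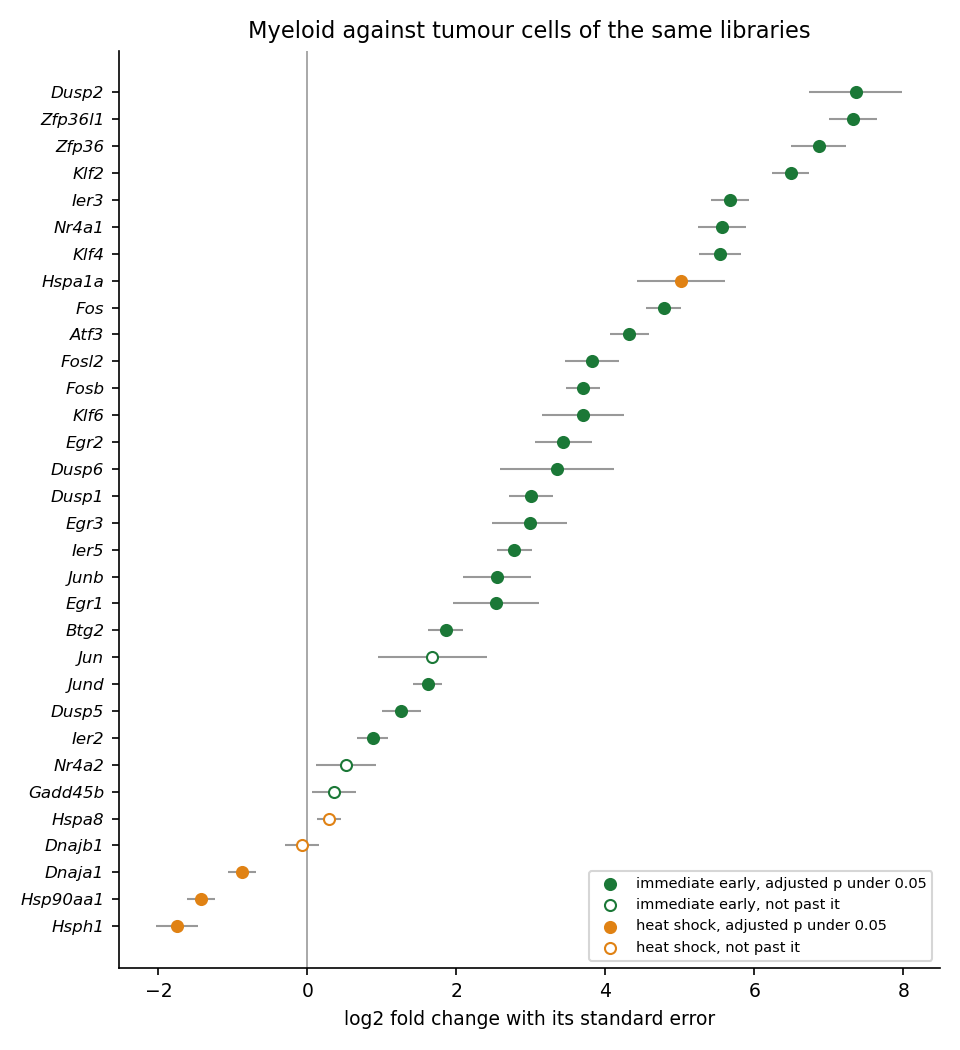
Log2 fold change of each tested member in myeloid against tumour cells of the same 4 libraries, with its standard error, ordered by size. Immediate early genes reach 7.36, for Dusp2, and the heat shock genes spread from -1.75, for Hsph1, to 5.02, for Hspa1a.

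Between sites, myeloid cells differed in 2 members. Of 31 tested, Dusp6 rose in brain against the other sites (log2 fold change 2.48, SE 0.40, adjusted p = 0.0345) and Dusp2 fell (log2 fold change -1.46, SE 0.25, adjusted p = 0.0392), where 1.64% of 6842 genes passed. Dusp6 measured 264 and 318 CPM in brain myeloid cells, 84.4 CPM in liver replicate 2 and 33.7 CPM in subcutaneous replicate 1. Dusp2 measured 85.9 and 70.3 CPM in brain and 199 and 208 CPM in the others. The kinds of myeloid cell differed too. Microglia markers summed to 6877 to 7589 CPM in brain myeloid cells, 391 CPM in those of liver replicate 2 and 253 CPM in those of subcutaneous replicate 1. Neutrophil markers summed to 471 and 174 CPM in brain replicates 1 and 2, 38.3 CPM in liver replicate 2 and 1896 CPM in subcutaneous replicate 1. Their part in the result was not tested. The Dusp6 call was lost without subcutaneous replicate 1 (log2 fold change 1.78), and the Dusp2 call without either brain library or subcutaneous replicate 1.

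The gap between myeloid and tumour cells itself differed by site for 6 of 32 members, 18.8%, where 5.11% of 12532 genes passed and the median of all genes was 0.27. In signed terms, myeloid minus tumour, it was higher in brain for Jun, Dusp6 and Klf6 and lower for Junb, Dusp2 and Hspa1a. In myeloid cells Jun measured 1645 and 959.6 CPM in brain, 422 CPM in liver replicate 2 and 586 CPM in subcutaneous replicate 1, against the lower Jun of brain tumour cells given above. Junb measured 2486 and 1548 CPM in brain, 1526 CPM in liver replicate 2 and 2108 CPM in subcutaneous replicate 1 in myeloid cells, with brain and other libraries overlapping. Hspa1a measured 33.8 and 32.7 CPM in brain, 721 CPM in liver replicate 2 and 56.7 CPM in subcutaneous replicate 1 in myeloid cells. Liver was highest in tumour cells too, but its myeloid value rests on 1 library with 45 myeloid cells. How the Hspa1a UMIs were spread over those myeloid cells was not examined.

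Other genes of the same pathways, listed with results of these data known, are given for comparison. In brain against liver 21.8% of all genes passed, in brain against subcutaneous tissue 15.1%, and in liver against subcutaneous tissue 2.83%. Of the further immediate early genes 39.3%, 25% and 14.3% passed. Of 28 tested further immediate early genes, 10 rose and 1 fell in brain against liver (median 0.29), led by Egr4 (5.10), the neuronal factor Npas4 (2.38) and the cytokine inhibitor Socs3 (1.82), with Errfi1 lower (-0.73). Against subcutaneous tissue 3 rose (Egr4 2.55, Npas4 2.28, Socs3 1.30) and 4 fell (median -0.09), led by Errfi1 (-1.40), a feedback inhibitor of EGF receptors, Maff (-0.94) and Ppp1r15a (-0.73). Between liver and subcutaneous tissue 4 fell, led by Nfil3 (-1.36), Irf1 (-1.34) and Cebpb (-1.15), and 26 of 28 were negative (median -0.45).

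Genes listed as lasting output of ERK signalling were called in both directions, and ERK activity itself was not measured. Of them 35.7%, 21.4% and 0% passed in the 3 comparisons, where 21.8%, 15.1% and 2.83% of all genes did. Of 14 such genes 2 rose in brain against liver, Etv1 (2.09) and Spry2 (1.23), and 3 fell, Phlda1 (-1.92), Epha2 (-1.40) and Spry1 (-1.02), with a median of -0.02. Against subcutaneous tissue Ccnd1, the cyclin of G1, rose (2.41), while Phlda1 (-2.38) and Spry1 (-1.25) fell. Of 16 upstream regulators, Elk3, a partner of serum response factor, rose in both brain comparisons (2.45 and 1.58). Against liver Mkl1 (-0.61), the ERK kinase Map2k1 (-0.48) and the heat shock factor Hsf1 (-0.39) fell, and against subcutaneous tissue Map2k1 (-0.66) and Mapk14 (-0.47). Of the upstream regulators 25%, 18.8% and 0% passed in the 3 comparisons.

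Of 24 other chaperones and HSF1 targets, 2 rose and 5 fell in brain against liver (median -0.18). The HSP70 cochaperone Bag3 (1.23) and Dnajb4 (0.53) rose, and the small heat shock proteins Hspb1 (-2.57), Hspb8 (-1.78) and Cryab (-1.15) fell the most. Against subcutaneous tissue Bag3 rose (0.95) and Hspb8 fell (-1.45). In liver against subcutaneous tissue Hspb1 rose (3.15), the same direction as Hspa1a and Hspa1b. Of these 24 genes 29.2%, 8.33% and 4.17% passed in the 3 comparisons, where 21.8%, 15.1% and 2.83% of all genes did.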

How the data were processed

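The authors deposited 1 matrix of whole-number UMI counts per library, in Cell Ranger output format with software version 3.0.0 per the file headers. Cell Ranger, STAR and build mm10 are named per the submitters' processing notes; the annotation is not given in the sources used here. Reads were counted by the authors before deposit, and no count was changed here. Kept cells had 500 genes or more and no more than 10% of UMIs from mitochondrial genes. No doublet caller was run. UMI counts were summed per library over tumour cells and over myeloid cells. R 4.3.3 with edgeR 4.0.16 (TMM, filterByExpr, robust quasi-likelihood F tests, 1 mean per site over all 8 libraries, 5 residual degrees of freedom, Benjamini-Hochberg over all tested genes) gave log2 fold changes, with SE as the change divided by the root of F. Myeloid cells were tested in libraries with at least 20 of them. CPM is UMIs per 1000000 summed UMIs of the class. DESeq2 1.42.0 was an alternative, and Python 3.11.15 did the rest. In simulated data the fit of the difference between class gaps, and slightly the brain against liver fit, made more false calls than the nominal rate.

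The members and gene lists were chosen with earlier results of these data known. Members past the threshold in a comparison are named with values per library; of other lists, up to 3 genes per direction. Genes were placed by identifier on GENCODE M21 (GRCm38). A gene's local level was the median log2 deviation of other genes of at least 10 CPM within 5 Mb, 0 where under 10 were found. Replicate numbers did not pair the libraries.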

Additional observations from a re-analysis of the deposited data

Results flagged for a closer look

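The difference between myeloid and tumour cells, taken in brain minus that in the other sites, passed the test for 6 members, with 1 spread estimated for both classes over the 4 libraries with enough myeloid cells. For Jun it was 2.34 on the log2 scale (edgeR, adjusted p = 1.58e-06), and the call was lost without brain replicate 1. For Junb it was -1.77 (adjusted p = 0.000304), lost without either brain library. For Klf6 it was 1.38 (adjusted p = 0.0271), lost without either brain library or liver replicate 2, where it was 0.46, with DESeq2 and at a myeloid threshold of 1%. For Dusp2 it was -2.28 (adjusted p = 1.68e-05), lost without brain replicate 1. For Dusp6 it was 2.44 (adjusted p = 6.35e-06), lost without brain replicate 2, liver replicate 2 or subcutaneous replicate 1, where it was 1.41, and with DESeq2. For Hspa1a it was -2.19 (adjusted p = 4.73e-06), lost without either brain library. A check for single outlying libraries was not possible in groups this small.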

How the results depend on the processing

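The 22 alternatives in tumour cells covered DESeq2, library totals, gene filters, cell thresholds, thinned cells, non-cycling cells, cells with no myeloid-marker UMI, fits of only the sites compared, the replicate number as a block, each library left out, and the local level of neighbouring genes, the last chosen after seeing the data. For the members called, 431 of 540 alternative values in tumour cells stayed past the threshold in the same direction and 109 missed it, as did 294 and 21 of 315 in the myeloid comparisons, and none of these changed direction. Members not called are not in these counts, and some of them changed direction, such as Nr4a1 in tumour cells. In the difference between class gaps, Egr1 was -1.37 without liver replicate 2 and 2.29 without subcutaneous replicate 1. Junb, Fos, Egr2, Egr3 and Dnajb1 in brain against liver, Junb in brain against subcutaneous and Hspa1a in liver against subcutaneous passed in every alternative that could be computed for them. Members called in brain against liver, 10, were 6 to 15 with a library left out. In brain against subcutaneous, 9 became 3 in the fit of only those sites and 3 to 16 with a library left out, 16 without subcutaneous replicate 1. In liver against subcutaneous, 6 became 13 with DESeq2, 3 at 10 CPM or more, and 1 to 10 with a library left out. Less the local level the counts were 8, 7 and 7. The difference between class gaps, 6, became 11 at a myeloid threshold of 1% and 1 to 12 with a library left out, and the 2 members between myeloid sites became 1 to 2. Over all genes, the 3032, 2099 and 394 calls of the 3 comparisons ranged from 1112 to 4557, 383 to 4754 and 33 to 1024 with a library left out. At 10 CPM or more, where fewer genes are tested, they were 1244, 849 and 227. Those of liver against subcutaneous became 1059 with DESeq2 and 713 with library totals, and those of brain against subcutaneous became 728 in the fit of only those sites. The 112 calls between myeloid sites ranged from 28 to 288 with a library left out, and the 640 of the class gaps became 212 with DESeq2 and as few as 71 with a library left out. Over all genes the block gave 1378 and 229 calls against subcutaneous tissue. With the replicate block 9, 6 and 5 members were called; same-numbered libraries correlated at -0.127 to 0.25, so the numbers were not taken as pairs. In tumour cells, apart from left-out libraries and the local level, calls were lost as follows. The fit of only the sites compared lost Dusp5 and Egr1 in brain against liver, Fos, Fosl2, Jun, Klf6, Nr4a2 and Zfp36 in brain against subcutaneous, and Dnajb1 in liver against subcutaneous. The block lost Egr1, Ier2 and Jun in the first, Fosl2, Jun, Klf6 and Zfp36 in the second, and Dnajb1, Hspa1b and Klf4 in the third. DESeq2 lost Hspa1b, a tumour threshold of 0.5% lost Dnajb1 and Hspa1b in the third, and library totals lost Jun in the first. Low-cycling cells and the filter at 10 CPM lost Jun in the second, thinned cells lost Zfp36 there, the filter at 1 UMI lost Zfp36 there and Egr1 in the first, and cells with no myeloid-marker UMI lost Hspa1a in the first and Zfp36 in the second. Depth limits Egr3, Fosl1, Dusp2, Zfp36l1 and Hspa1b, which rest on few UMIs.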
